A study of Arabidopsis thaliana with 9 samples.

Results

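The 6 nuclear genes described here encode parts of the chloroplast's photosynthetic machinery: PSAE-1 and PSAN of photosystem I, PSBW and PSBY of photosystem II, the antenna protein LHCB4.2, and RCA, the activase of Rubisco. They were chosen by symbol from the annotation that pairs the array's probe sets with genes. All 6 of the 6 listed genes had a probe set, 1 each, and all 6 were among the 10395 probe sets tested, of 16863 in the table. The expression arrays were Affymetrix arrays of Arabidopsis thaliana seedlings of 3 genotypes, with 3 arrays a genotype and 9 in all. One group carried the cct-1 mutation and was harvested at 9 days. The next carried the gct-2 mutation and was also harvested at 9 days, and the last was wild-type Col-0, harvested at 7 days. The gene CCT encodes MED12 and the gene GCT encodes MED13, both in the kinase module of Mediator, the complex that connects transcription factors with RNA polymerase.

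All 3 groups shared soil culture at 23 °C in long days (16 h light, 8 h dark) and harvest at 1 stage, with first leaf primordia 1 mm long. A mutant and wild type therefore differed in age as well as genotype, and genotype and age cannot be told apart in that comparison, whereas cct-1 and gct-2 seedlings were of equal age. Each array was a separate biological replicate made from 75 to 100 seedlings, and seedlings without cotyledons or leaf primordia were not included. Each mutant was represented by 1 allele. The above-ground parts hold many cell types, so that fewer cells of a type and less RNA per cell cannot be told apart.

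In photosynthesis, photosystem II and photosystem I sit in the thylakoid membrane and pass electrons from water towards ferredoxin, and antenna proteins that bind chlorophyll feed them light energy. Their core proteins are largely encoded in the chloroplast genome. Some of the other subunits, and all antenna proteins of the LHC family, are encoded in the nucleus and imported. Carbon dioxide is then fixed by Rubisco, which RCA keeps active by removing inhibitory sugar phosphates from its catalytic sites. In seedlings these nuclear genes are transcribed strongly in the green cells of cotyledons and young leaves.

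The median log2 value of an array was between 7.703 and 7.765, and the number of arrays limits the precision. Across probe sets, none of which is an independent replicate, Pearson's r was 0.9889 to 0.9955 between arrays of 1 genotype and 0.9746 to 0.9898 between arrays of different genotypes. No probe set was named for CCT or GCT, so the genotype labels were not checked through the targeted genes. Of marker genes for other tissues, 0 of 12 for seed, 0 of 8 for root and 0 of 6 for vascular tissue and meristem had a named probe set, and these were not analysed here. Of 7 markers of epidermis, trichomes and guard cells 1 had a named probe set, FAMA, a transcription factor of the guard cell lineage. FAMA averaged 6.61 ± 0.451 in cct-1, 6.69 ± 0.269 in gct-2 and 7.68 ± 0.255 in wild type (SD, n = 3 each). The log2 difference from wild type was -1.07 for cct-1 and -0.98 for gct-2. Its mutant values lay near the filter on dim signals, at a median of 6.86, and its part in the results below was not tested.

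Values below are log2 expression values, and a difference is that of 2 genotype means on this scale. Tests were moderated tests in limma, with p-values adjusted by Benjamini-Hochberg over all 10395 probe sets, and a gene was called at an adjusted p under 0.05. Both mutants were set against the same 3 wild-type arrays.

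The 2 photosystem I genes were lower on every cct-1 array than on any wild-type array, but neither passed the test. PSAE-1 (AT4G28750) encodes a stromal subunit that helps ferredoxin dock on photosystem I. Its values were 13.31, 12.96 and 13.10 in cct-1 seedlings, 13.25, 13.35 and 13.34 in gct-2 seedlings, and 13.46, 13.38 and 13.42 in wild type. All 6 mutant arrays lay below the 3 wild-type arrays, and the spread was widest in cct-1 (13.12 ± 0.178, against 13.42 ± 0.0414 in wild type, SD, n = 3 each). The difference from wild type was -0.30 in cct-1 (SE 0.095, adjusted p = 0.0719) and -0.11 in gct-2 (95% interval -0.32 to 0.11, adjusted p = 0.48, limma). The cct-1 and gct-2 arrays overlapped, with a difference of -0.19 (interval -0.41 to 0.024, adjusted p = 0.275, limma). Replicate 1 of cct-1, the highest of its group, weighed on this result: without it PSAE-1 was called lower in cct-1 (log2 difference -0.39, adjusted p = 0.0271, limma), and without cct-1 replicate 2 the adjusted p was 0.205.

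PSAN (AT5G64040) encodes the subunit on the lumen side that takes part in electron transfer from plastocyanin. It had 12.85, 12.73 and 12.78 in cct-1, 12.85, 12.92 and 12.88 in gct-2, and 13.09, 13.10 and 12.90 in wild type. The cct-1 arrays lay below all wild-type arrays, whereas in gct-2 replicate 2 passed the lowest wild-type array. The difference from wild type was -0.24 in cct-1 (SE 0.080, adjusted p = 0.0799) and -0.15 in gct-2 (interval -0.33 to 0.032, adjusted p = 0.239, limma). Wild-type replicate 3 was the low one of its group, and without it PSAN was called lower in cct-1 (log2 difference -0.31, adjusted p = 0.0429, limma). This was the 1 call in the 9 limma fits that each left out 1 array, and without wild-type replicate 2 the adjusted p was 0.227. Between the mutants PSAN differed by -0.093 (interval -0.27 to 0.087, adjusted p = 0.532, limma).

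The 2 photosystem II genes had nearly equal means in gct-2 and wild type, and cct-1 arrays below those of wild type. PSBW (AT2G30570) encodes a small membrane subunit needed for stable supercomplexes of photosystem II with its antenna. Its values were 11.38, 11.45 and 11.26 in cct-1, 11.54, 11.68 and 11.58 in gct-2, and 11.60, 11.65 and 11.59 in wild type. Every cct-1 array was below every gct-2 and every wild-type array, while gct-2 and wild type overlapped. PSBW differed from wild type by -0.25 in cct-1 (SE 0.078, adjusted p = 0.0642) and by -0.015 in gct-2 (interval -0.19 to 0.16, adjusted p = 0.921, limma). The direct difference of cct-1 from gct-2 was -0.24 (interval -0.41 to -0.061), with an unadjusted p of 0.0136 and an adjusted p of 0.111 in limma.

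PSBY (AT1G67740) encodes a precursor of small membrane proteins found next to cytochrome b559. It had 12.58, 12.51 and 12.44 in cct-1, 12.55, 12.67 and 12.66 in gct-2, and 12.61, 12.66 and 12.65 in wild type. The cct-1 arrays lay just below the wild-type arrays, at 12.51 ± 0.0726 against 12.64 ± 0.0229 (SD, n = 3 each). The difference was -0.13 for cct-1 (interval -0.29 to 0.034, adjusted p = 0.274), and -0.012 for gct-2 (interval -0.17 to 0.15, adjusted p = 0.931), and -0.12 between the mutants (interval -0.28 to 0.046, adjusted p = 0.376), all in limma. The gct-2 differences of PSBW and PSBY changed sign with quantile normalization, to 0.028 and 0.016.

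LHCB4.2 separated the 2 mutants. It encodes a minor antenna protein that links the outer antenna trimers to the core of photosystem II, and is 1 of 3 LHCB4 genes. LHCB4.2 (AT3G08940) had 12.61, 12.52 and 12.58 in cct-1, 13.09 on each of the 3 arrays in gct-2, and 12.88, 12.81 and 12.70 in wild type. No array overlapped with one of another genotype: all gct-2 arrays were above wild type and all cct-1 arrays below it. Group values were 12.57 ± 0.0458 in cct-1, 13.09 ± 0.00482 in gct-2 and 12.80 ± 0.0894 in wild type (SD, n = 3 each).

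LHCB4.2 rose in gct-2, where it was 1.23 times the wild-type level (log2 difference 0.30, SE 0.072, adjusted p = 0.0242, limma). In cct-1 the difference from wild type was -0.23 (interval -0.39 to -0.064, unadjusted p = 0.0116), with an adjusted p of 0.07 in limma. Tested directly, LHCB4.2 was lower in cct-1 than in gct-2, at 0.696 times the gct-2 level (log2 difference -0.52, interval -0.68 to -0.36, adjusted p = 0.00665, limma). This contrast stood at rank 69 of the 10395 probe sets by the size of its test statistic. It was called in all 18 alternative fits that were run, with differences between -0.54 and -0.50 and adjusted p-values up to 0.034. The call against wild type in gct-2 was lost in 5 of the 9 limma fits that each left out 1 array. Its adjusted p was 0.0557 without gct-2 replicate 1, 0.0722 without replicate 2 and 0.0713 without replicate 3. Without wild-type replicate 2 or replicate 3 it was 0.0697 or 0.0715.

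RCA (AT2G39730) gave overlapping arrays in all 3 comparisons. Its values were 13.20, 13.13 and 13.19 in cct-1, 13.13, 13.14 and 13.08 in gct-2, and 13.03, 13.13 and 13.11 in wild type. The difference from wild type was 0.080 in cct-1 (interval -0.069 to 0.23, adjusted p = 0.464) and 0.027 in gct-2 (interval -0.12 to 0.18, adjusted p = 0.818, limma). Between cct-1 and gct-2 it was 0.053 (interval -0.096 to 0.20, adjusted p = 0.681, limma). RCA was the 1 gene of the 6 with a positive difference in cct-1.

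**Figure D1:**
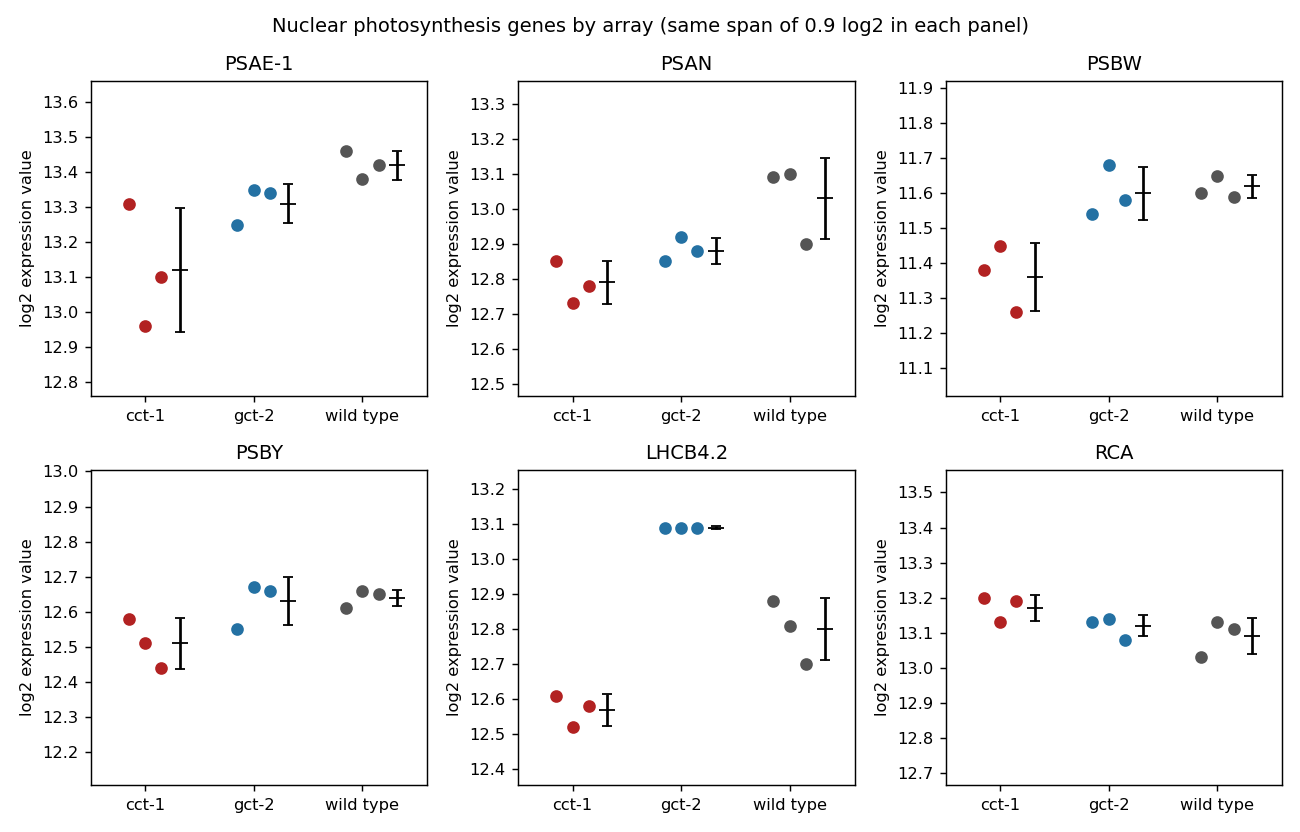
Log2 expression value (vertical axis, the same span in each panel) of the 6 genes on the 9 arrays, with points for arrays in replicate order and a bar for the mean and SD of each genotype (n = 3). LHCB4.2 has 3 separate groups, with gct-2 at 13.09 on each array, while the arrays of RCA overlap between genotypes.

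Counted together, limma called 0 of the 6 genes in cct-1 relative to wild type, beside 12.9% of all tested probe sets. At an unadjusted p under 0.05 there were 4 of 6, PSAE-1, PSAN, PSBW and LHCB4.2, beside 28.9% of all probe sets. In 5 of 6, all but RCA, the 3 cct-1 arrays lay below the 3 wild-type arrays, as they did for 15.6% of all probe sets. The median difference of the 6 genes was -0.23, beside 0.0092 over all probe sets. PSAE-1, PSBW, PSAN and LHCB4.2 lay close together, between -0.30 and -0.23.

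The 6 genes are among the brighter probe sets of the table, so the shares were also taken over the 778 tested probe sets whose mean was at least that of PSBW, the lowest of the 6 at 11.53. This comparison was chosen after the data were seen. Among these bright probe sets 7.2% were called in cct-1, and 21.9% had all cct-1 arrays below all wild-type arrays. The call depended on how the spread was modelled. With a spread that follows the signal level and is robust to outlying probe sets, 4 of 6 genes were called lower in cct-1, with adjusted p-values of 0.0219 for PSAE-1, 0.0123 for PSAN, 0.0202 for PSBW and 0.00745 for LHCB4.2 in limma. That model called 15.1% of all probe sets and 18.6% of the bright ones. The size of the differences did not change with it. By mean signal the 6 genes lay between percentiles 92.53 (PSBW) and 99.85 (PSAE-1) of the tested probe sets. The highest value of any probe set was 13.93, and whether differences were compressed near the top of the range was not tested.

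In gct-2 against wild type 1 of the 6 genes was called, LHCB4.2, which was higher, beside 15.3% of all probe sets called either way, 7.48% called higher and 5.53% of the bright ones called either way. The gct-2 arrays lay above the wild-type arrays for LHCB4.2, as for 18.6% of all probe sets, and below them for PSAE-1, as for 18.7%. The median difference was -0.013, beside -0.0065 over all probe sets.

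Between cct-1 and gct-2 1 of the 6 was called, LHCB4.2, lower in cct-1, beside 6.39% of all probe sets called either way, 3.19% called lower and 3.34% of the bright ones called either way. PSBW and LHCB4.2 had all cct-1 arrays below all gct-2 arrays, as did 12.8% of all probe sets. The median difference was -0.15, beside 0.016 over all. With the spread modelled along the signal level PSBW was called as well (adjusted p = 0.0436, limma), and that model called 7.73% of all probe sets. The 3-way order seen in LHCB4.2, with cct-1 arrays below and gct-2 arrays above all wild-type arrays, was found in 56 of the 10395 probe sets, or 0.539%. That order was taken from the values of LHCB4.2 itself, so its share is a description and no test.

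**Figure D2:**
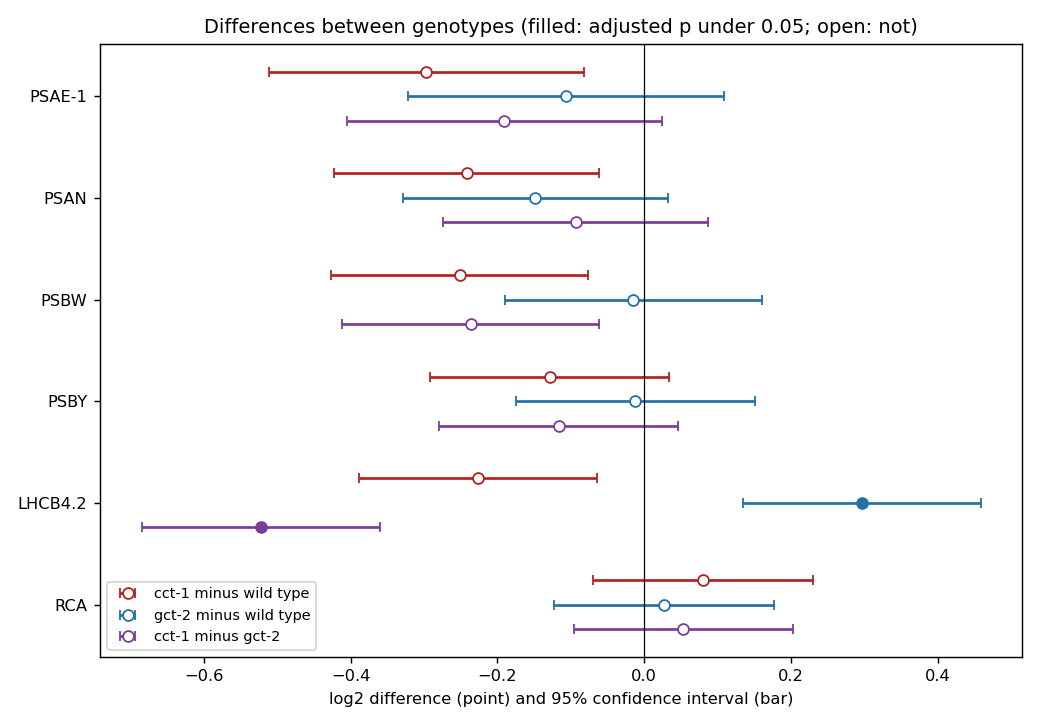
Log2 difference (horizontal axis) with its 95% confidence interval for each of the 6 genes in cct-1 minus wild type, gct-2 minus wild type and cct-1 minus gct-2, with filled points where the adjusted p was under 0.05. The filled points are those of LHCB4.2 in gct-2 minus wild type (0.30) and in cct-1 minus gct-2 (-0.52).

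In gct-2 against wild type LHCB4.2 was called higher and LHCB4.3 lower, and LHCB4.1 was not called. In cct-1, LHCB4.1, LHCB4.2 and LHCB4.3 all had their arrays below the wild-type arrays, as did 15.6% of all probe sets. The LHCB4 genes were not tested against each other. LHCB4.1 (AT5G01530) had 13.51, 13.47 and 13.50 in cct-1, 13.58, 13.54 and 13.58 in gct-2, and 13.54, 13.58 and 13.61 in wild type. The cct-1 arrays lay below all others, but by little. By mean signal LHCB4.1 was at percentile 99.96 of the tested probe sets and LHCB4.3, below, at 42.14. Whether differences of very bright probe sets were compressed was not tested. The differences of LHCB4.1 were -0.086 for cct-1 (interval -0.23 to 0.056, adjusted p = 0.403) and -0.0095 for gct-2 (interval -0.15 to 0.13, adjusted p = 0.94) from wild type, and -0.077 between the mutants (interval -0.22 to 0.066, adjusted p = 0.513), all in limma, and the gct-2 difference changed sign with quantile normalization (0.039).

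LHCB4.3 (AT2G40100) fell in both mutants. Its values were 8.83, 8.16 and 8.62 in cct-1, 7.84, 8.49 and 8.35 in gct-2, and 9.40, 9.32 and 9.59 in wild type, so that all 6 mutant arrays lay below wild type. LHCB4.3 was at 0.537 times the wild-type level in cct-1 (log2 difference -0.90, SE 0.20, adjusted p = 0.0209) and at 0.432 times in gct-2 (-1.21, SE 0.20, adjusted p = 0.00495, limma). Between the mutants the arrays overlapped, with a difference of 0.31 (interval -0.14 to 0.77, adjusted p = 0.395, limma). The gct-2 call was kept in all 9 fits without 1 array. The cct-1 call was lost in 4 of them, with adjusted p-values of 0.0596 without cct-1 replicate 2, and 0.0512, 0.0578 and 0.0547 without wild-type replicates 1, 2 and 3. In gct-2 the log2 difference from wild type was thus 0.30 for LHCB4.2, -0.0095 for LHCB4.1 and -1.21 for LHCB4.3.

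**Figure D3:**
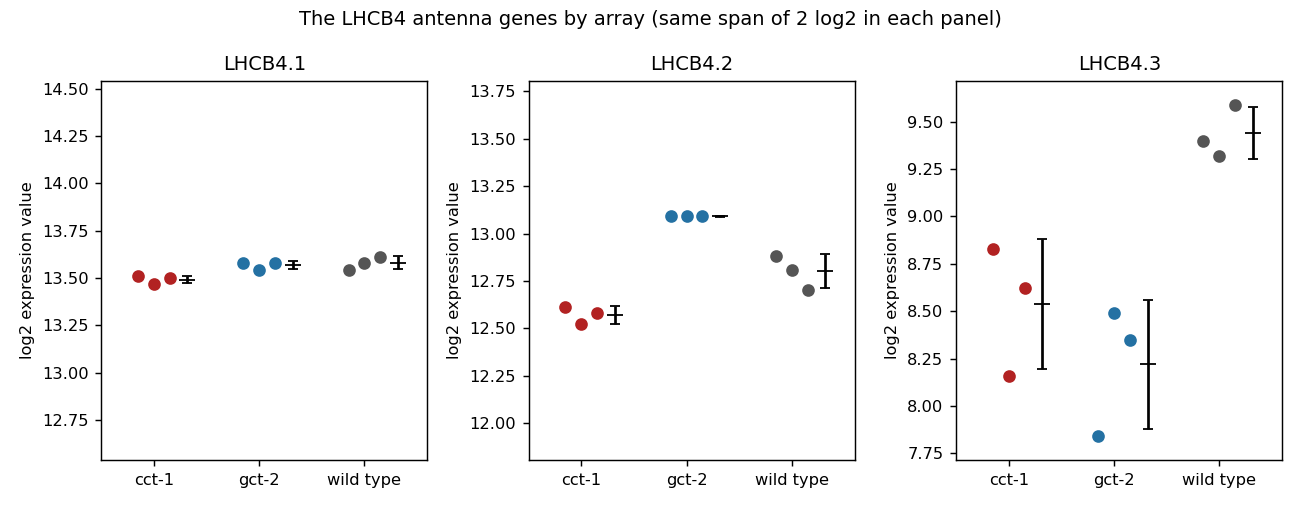
Log2 expression value (vertical axis, the same span of values in each panel) of LHCB4.1, LHCB4.2 and LHCB4.3 on the 9 arrays, with points for arrays in replicate order and a bar for the mean and SD of each genotype (n = 3). LHCB4.2 has gct-2 on top, LHCB4.3 has wild type on top, and the LHCB4.1 groups lie within a narrow range.

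To place the 6 genes in their pathway, 126 other photosynthesis genes in 8 lists were looked up. Of these, 19 had a probe set annotated to that gene alone, all of them tested. Probe sets with several genes or with none were not used, so the others may still be on the array. None of the 10 other listed subunits of photosystem I and none of the 14 listed regulators was among them. In cct-1 3 of the 19 were called, 1 higher (PGRL1B) and 2 lower (LHCB4.3 and HEME1), beside 12.9% of all probe sets called. Of the 19 differences 14 were negative, beside 48% of all probe sets and 53.2% of the bright ones, with a median of -0.079. For 4 of the 19 all cct-1 arrays lay below all wild-type arrays, as for 15.6% of all probe sets and 21.9% of the bright ones. In gct-2 3 of 19 were called, 2 higher (PGRL1B and PORB) and 1 lower (LHCB4.3), beside 15.3% of all probe sets. There 15 of 19 differences were negative, beside 51.3% of all probe sets and 62.2% of the bright ones, and 7 had all gct-2 arrays below all wild-type arrays, as did 18.7% of all probe sets, with a median of -0.034. Between the mutants 1 of 19 was called, PORB, which was lower in cct-1, beside 6.39% of all probe sets, and the median was -0.0053. The shares called are near those of all probe sets. Of 12 other listed photosystem II genes 1 was among the 19, PSB27, which encodes an assembly factor of photosystem II. PSB27 differed from wild type by -0.15 in cct-1 (adjusted p = 0.222) and by -0.084 in gct-2 (adjusted p = 0.49, limma).

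Among 3 genes of electron transport and ATP synthase, PGRL1B rose in both mutants. PGRL1B (AT4G11960) encodes a thylakoid protein of cyclic electron flow around photosystem I. It had 9.82, 10.03 and 9.97 in cct-1, 9.95, 9.97 and 9.81 in gct-2, and 9.64, 9.46 and 9.40 in wild type, with all mutant arrays above the wild-type arrays. PGRL1B was 1.36 times the wild-type level in cct-1 (log2 difference 0.44, SE 0.093, adjusted p = 0.0165) and 1.33 times in gct-2 (0.41, adjusted p = 0.019, limma), and the mutants differed by 0.031 (interval -0.18 to 0.24, adjusted p = 0.871). In limma the cct-1 call was lost without cct-1 replicate 2 (adjusted p = 0.0586) and without wild-type replicate 2 (0.0663). The gct-2 call was lost without gct-2 replicate 1 (0.0522) or 2 (0.0712) and without wild-type replicate 2 (0.0705) or 3 (0.0561). ATPC1, the gamma subunit of the chloroplast ATP synthase, differed from wild type by -0.039 in cct-1 and -0.034 in gct-2, with adjusted p-values of 0.747 and 0.768 in limma.

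Of the chlorophyll synthesis list 7 genes had a named probe set. PORB (AT4G27440), a light-dependent reductase of protochlorophyllide, had 12.06, 12.08 and 11.96 in cct-1, 12.48, 12.45 and 12.41 in gct-2, and 12.27, 12.19 and 12.06 in wild type. The gct-2 arrays were above all others, whereas cct-1 and wild-type arrays overlapped. PORB was higher in gct-2 than in wild type (log2 difference 0.27, SE 0.077, adjusted p = 0.0432, limma) and lower in cct-1 than in gct-2, at 0.753 times the gct-2 level (-0.41, SE 0.077, adjusted p = 0.0199, limma). In cct-1 the difference of PORB from wild type was -0.14 (interval -0.31 to 0.038, adjusted p = 0.281, limma).

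The PORB calls were close to the threshold when fewer arrays were used. The gct-2 call against wild type was lost in 7 of the 9 limma fits without 1 array, with an adjusted p of 0.117 when wild-type replicate 3 was left out and 0.105 for wild-type replicate 2. With gct-2 replicate 1, 2 or 3 left out it was 0.097, 0.115 or 0.0873. It was 0.0568 without cct-1 replicate 1 and 0.0577 without cct-1 replicate 2, which left the difference itself the same, 0.0579 with no filter on dim signals and 0.0623 in a fit of these 2 genotypes alone. The direct call was lost in 4 fits, those that left out cct-1 replicate 2 (0.0521) or 3 (0.0527), or gct-2 replicate 2 (0.0739) or 3 (0.0669).

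HEME1 (AT3G14930), a uroporphyrinogen decarboxylase on the route shared by chlorophyll and haem, had 11.22, 11.02 and 11.25 in cct-1, 11.40, 11.48 and 11.53 in gct-2, and 11.53, 11.48 and 11.44 in wild type. The cct-1 arrays were below all others. HEME1 fell in cct-1, to 0.798 times the wild-type level (log2 difference -0.33, SE 0.083, adjusted p = 0.0347, limma), and differed by -0.016 in gct-2 (adjusted p = 0.922), or 0.016 after quantile normalization. The direct difference of HEME1 between cct-1 and gct-2 was -0.31 (interval -0.50 to -0.12), with an adjusted p of 0.0635 in limma. The cct-1 call was lost in 6 of 9 limma fits without 1 array, with adjusted p-values of 0.103 without cct-1 replicate 2, 0.057 without cct-1 replicate 1, 0.0571 without gct-2 replicate 2, and 0.099, 0.0981 and 0.0559 without wild-type replicates 1, 2 and 3. In a fit of these 2 genotypes alone it was 0.0702. The other 5 chlorophyll genes were not called: in cct-1 HEME2 and CHLI2, a subunit of magnesium chelatase, each differed by -0.19 (adjusted p = 0.187 and 0.182, limma), and HEMB1, GSA1 and CHLM lay between -0.079 and 0.011.

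None of 3 carbon fixation genes and none of 3 photorespiration genes was called in any of the 3 comparisons in limma. At an unadjusted p under 0.05 there was 1 of each in gct-2 against wild type, beside 3258 of all 10395 probe sets. Between the mutants there was 1 carbon fixation gene, beside 2374 of all 10395. In cct-1 the carbon fixation genes differed from wild type by -0.038 for PRK, 0.0013 for SBPASE and 0.021 for AT1G56190. PRK and SBPASE encode enzymes that regenerate the acceptor of carbon dioxide. In gct-2 the arrays of 3 of 3 lay below all wild-type arrays, as did 18.7% of all probe sets, with differences of -0.14 for PRK (adjusted p = 0.356), -0.093 for SBPASE (adjusted p = 0.367) and -0.24 for AT1G56190 (adjusted p = 0.108, limma). The photorespiration genes differed by -0.097 to 0.094 in cct-1 and by -0.24 to -0.026 in gct-2, and HPR, a hydroxypyruvate reductase, was the 1 with a positive difference in cct-1 (0.094, adjusted p = 0.401, limma).

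**Figure D4:**
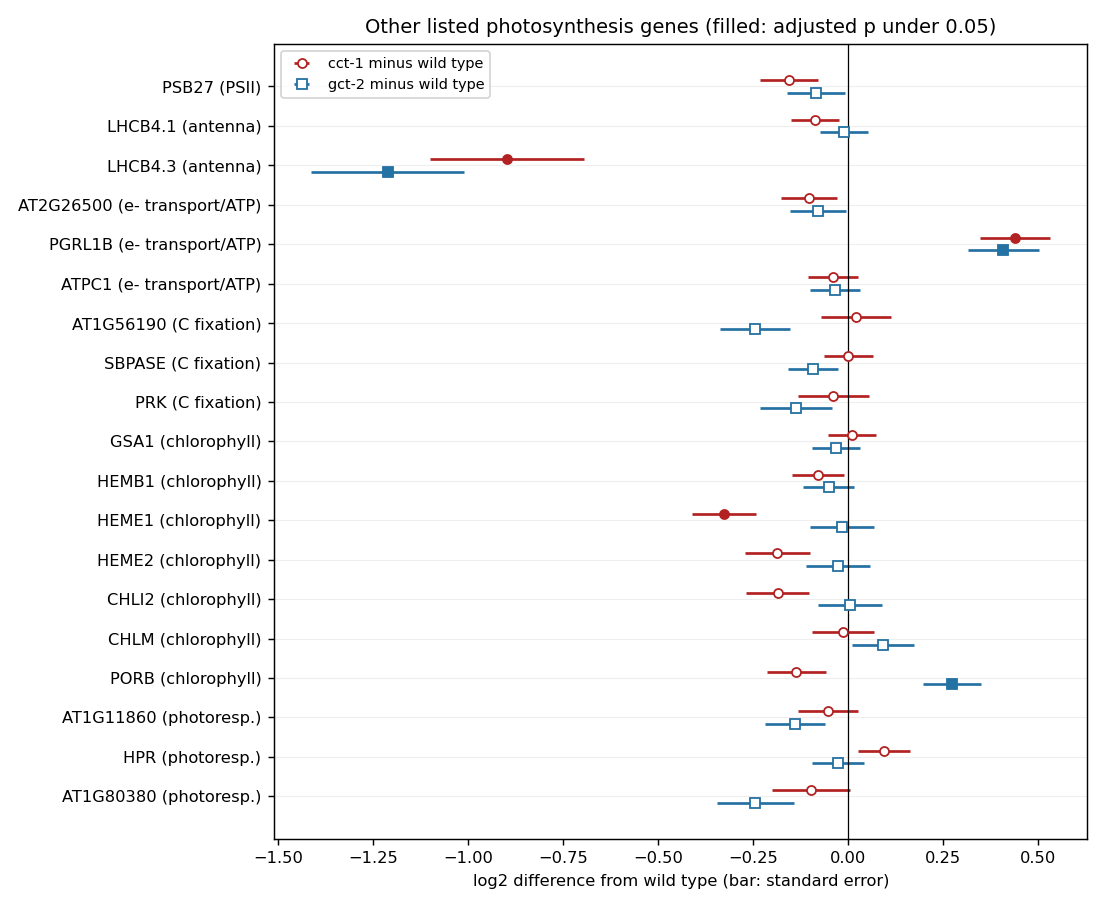
Log2 difference from wild type (horizontal axis, bars for the standard error) of the 19 other listed photosynthesis genes in cct-1 (circles) and gct-2 (squares), with filled symbols where the adjusted p was under 0.05. LHCB4.3 lies far to the left and PGRL1B to the right in both mutants, and PORB is filled on the right in gct-2.

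For each of the 6 genes the 3 named genes with the most similar profile over the 9 arrays were taken from 5486 candidates. The arrays form 3 genotype groups, so a correlation over them is a description. The profile closest to LHCB4.2 was that of AT5G64180 (Pearson's r = 0.991), followed by AT5G05110 (0.987) and AT1G51610 (0.982). Their differences follow from that choice on the same arrays and are given without a test. AT5G64180 differed from wild type by -0.78 in cct-1 and 0.85 in gct-2, AT5G05110 by -0.28 in cct-1 and 0.42 in gct-2, and AT1G51610 by -0.29 in cct-1 and 0.57 in gct-2.

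The other 5 genes had their closest profiles elsewhere. For PSAE-1 these were AT1G32260 (r = 0.978), RAB6A (0.963), a small GTPase of the Golgi, and AT3G07010 (0.953). For PSAN they were AT3G53670 (0.942), AT1G17620 (0.934) and VPS46.2 (0.932), and for PSBW AT3G60810 (0.936), OS9 (0.934) and PWD (0.931), a phosphoglucan water dikinase of starch breakdown. PSBY was closest to AT3G17950 (0.961), AT5G02160 (0.933) and AT1G78140 (0.92), and RCA to AT4G30820 (0.981), ETL1 (0.953) and AT2G17410 (0.944).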

How the data were processed

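The values were log2 expression values per probe set as the authors deposited them, 1 column per array, and the log2 scale was read from the values themselves. GCRMA and MAS5 are named per the submitters' processing notes, without role or version, and how background, normalization and probe set choice were handled was not given in the sources used here. Per the labels' protocols cDNA was amplified from 50 ng of RNA, and seedlings were collected in rounds over all tubes.

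From these values, a mean per genotype was fitted over all 9 arrays in R 4.3.3 with limma 3.58.1 (lmFit and eBayes). The test took in probe sets that exceeded the 40th percentile of the array on 3 or more arrays, without 37 control probe sets. Contrasts were adjusted by Benjamini-Hochberg, and called under 0.05. The median standard error of a cct-1 difference was 0.111. Figures were drawn with matplotlib 3.10.9.

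Gene names are those of the platform annotation with symbols updated by a TAIR10.1 RefSeq table. Of the probe sets 9335 had 1 gene, 351 several and 7140 none, and only probe sets with 1 gene were named. No coordinates or sequences are given, since no genome of a stated build was used here. The members, the gene lists and the tests were chosen with earlier results of these data known. Named genes were the 6 members, the listed photosynthesis genes with a probe set (up to 4 called per list and contrast with full values), paralogs where measured, and the 3 closest profiles of each member.

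As alternatives, the filter was dropped or raised to the 60th percentile, and arrays were quantile normalized, centred on their median or weighted by quality. The variance was fitted along the signal level and robustly (intensity trend), replicate number was added as a block, the 2 compared genotypes were fitted alone, probe sets ending in _s_at or _x_at were dropped, the threshold was set to 0.01, and each array was left out in turn.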

Additional observations from a re-analysis of the deposited data

Results flagged for a closer look

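LHCB4.2 and PORB differed between the 2 mutants, which were of equal age, by the direct test of that difference. They were 1 of the 6 genes and 1 of the 19 other listed genes, beside 6.39% of all tested probe sets called in this contrast. For LHCB4.2, cct-1 minus gct-2 was -0.52 on the log2 scale (SE 0.072, adjusted p = 0.00665, limma), lower in cct-1 on 3 of 3 arrays. For PORB it was -0.41 (SE 0.077, adjusted p = 0.0199, limma), also with all 3 cct-1 arrays below all 3 gct-2 arrays. That order of arrays was found in 12.8% of all probe sets. The direct call of PORB was kept in 5 of the 9 fits without 1 array, and that of LHCB4.2 in all 9.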

How the results depend on the processing

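Over 18 alternatives the 18 differences of the 6 genes gave 324 values, of which 301 kept direction and side of the threshold, 6 lost a call, 10 gained one and 7 changed sign. All 6 lost calls were those of LHCB4.2 in gct-2 against wild type, and 1 of these came with the replicate block. The labels do not say whether equal replicate numbers pair arrays. Deviations from the genotype means had an r of -0.268 to 0.0881 for equal numbers over 9 pairs, and -0.117 to 0.248 for unequal numbers over 18. Deviations within a genotype depend on each other, so these ranges cannot decide whether arrays were paired. With the replicate block 0 of 6 genes were called in gct-2 (LHCB4.2 adjusted p = 0.0548, limma) and 358 probe sets between the mutants, against 664 without it. The block also ended the calls of HEME1 in cct-1 (0.0712) and PORB in gct-2 (0.0604). In cct-1 against wild type 1 of 6 was called with a 60th percentile filter (PSBW, adjusted p = 0.0482, beside 1031 of 7062 probe sets), 2 with array weights (PSAN and LHCB4.2, beside 1784 of 10395) and 4 with the intensity trend (beside 1574 of 10395), against 0 in the reported fit (4 at an unadjusted p under 0.05). Between the mutants 2 of 6 were called with the intensity trend, beside 804 of 10395 probe sets. Of the 19 list genes, 2 were called between the mutants with the 60th percentile filter, the intensity trend or array weights. At an adjusted p under 0.01 the probe sets called were 502 for cct-1, 623 for gct-2 and 123 between the mutants, the list genes 0, 1 and 0, and in gct-2 0 of the 6 genes. In gct-2 2640 probe sets were called with no filter and 2682 with array weights, against 1586. Between the mutants 1023 were called with array weights and 392 from the 2 genotypes alone.

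Leaving out 1 array at a time, 590 to 1310 probe sets were called for cct-1, 805 to 1646 for gct-2 and 151 to 647 between the mutants. Of the 6 genes 0 to 1 were called in cct-1, 0 to 1 in gct-2 and 1 between the mutants, and of the list genes 0 to 3, 1 to 3 and 0 to 1. These fits have fewer arrays. Signs changed only for differences near 0: in gct-2, quantile normalization gave 0.028 for PSBW, 0.016 for PSBY, 0.039 for LHCB4.1 and 0.016 for HEME1, and array weights gave 0.0014 for PSBY and 0.00046 for HEME1. Without 1 array the gct-2 differences ran from -0.056 to 0.018 for PSBW, -0.035 to 0.027 for PSBY, -0.0019 to 0.048 for RCA, -0.027 to 0.0072 for LHCB4.1 and -0.047 to 0.019 for HEME1. That of PGRL1B between the mutants ran from -0.018 to 0.090. The causes were not tested. The promoter motif comparison was not run, as no promoter sequences were used here.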
